A study of Mus musculus with 6 samples.

Results

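These results concern 10 genes of the p53 response in the left ventricle of the mouse heart: Trp53 itself and 9 genes that its protein product is known to switch on. Ccng1, Mdm2 and Sesn2 were selected on the lower log2 values they had in the knockout in these same arrays, so their differences between genotypes are given below as a description with no test. Of the 10 genes, 8 had a probe set carrying their symbol alone, 1 probe set each, out of 21789 probe sets with a single symbol and 35556 in all. The probe set that lists Cdkn1a also lists a second gene, so no value is given for Cdkn1a, and Trp53 was not analysed here.

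The study set 3 left ventricles of MURC knockout male mice against 3 of wild-type male mice, all on a C57BL/6 background, with biotin-labelled RNA on Affymetrix arrays. MURC is the muscle protein now named cavin-4, encoded by Cavin4, which sits in caveolae, the flask-shaped pits of the muscle cell membrane. By the labels, knockout replicates 1 and 2 were 11 weeks old and replicate 3 was 13, while wild-type replicates 1 and 2 were 13 weeks old and replicate 3 was 12. Within the knockout, age cannot be told apart from replicate 3. Values with age as a covariate therefore rest largely on that array. The labels do not say how the allele was made or whether the samples are separate animals. The p-values therefore cover only the spread between these samples, which may be technical. No treatment or agent that damages DNA is given in the labels for any of the 6 samples.

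The p53 protein is a transcription factor that is held at a low level in healthy cells and accumulates after DNA damage, nutrient shortage or oncogene activity. Mdm2, a ubiquitin ligase, marks p53 for destruction and is itself a p53 target, which closes a negative feedback loop. Other targets stop the cell cycle (Cdkn1a), restrain growth signalling (the sestrins Sesn1 and Sesn2, and Phlda3), respond to DNA damage and stress (Gadd45a, Trp53inp1) or bind RNA (Zmat3). In the adult heart, where most muscle cells no longer divide, the pathway is best known for its part in cell death and metabolism under stress. In a bulk sample, fewer cells of a type and less RNA per cell cannot be told apart.

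The promoters of the 4 genes whose values separated the genotypes are shown because p53 acts by binding DNA near the genes it controls. Each sequence holds the 250 bases before the RefSeq start site of the gene, on build GRCm38.p6, read on the strand of the gene. Capitals in Ccng1 mark a 20-base p53 element, 2 abutting half-sites of 10 bases, that departs from the p53 consensus at 1 base. Capitals in Mdm2 and Gadd45a mark a single half-site that fits the consensus, and Sesn2 held neither.
Ccng1, chr11:40755287-40755536, minus strand: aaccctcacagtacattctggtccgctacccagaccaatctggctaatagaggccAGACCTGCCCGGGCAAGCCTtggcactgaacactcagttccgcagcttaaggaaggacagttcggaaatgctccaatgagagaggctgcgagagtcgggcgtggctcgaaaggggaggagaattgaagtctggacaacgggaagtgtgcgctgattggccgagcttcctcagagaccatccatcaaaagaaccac
Mdm2, chr10:117710759-117711008, minus strand: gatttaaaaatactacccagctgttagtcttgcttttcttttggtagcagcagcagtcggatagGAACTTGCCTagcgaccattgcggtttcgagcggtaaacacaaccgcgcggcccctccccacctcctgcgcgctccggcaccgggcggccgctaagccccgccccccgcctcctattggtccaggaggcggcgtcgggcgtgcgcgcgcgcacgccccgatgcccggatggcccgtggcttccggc
Sesn2, chr4:132510457-132510706, minus strand: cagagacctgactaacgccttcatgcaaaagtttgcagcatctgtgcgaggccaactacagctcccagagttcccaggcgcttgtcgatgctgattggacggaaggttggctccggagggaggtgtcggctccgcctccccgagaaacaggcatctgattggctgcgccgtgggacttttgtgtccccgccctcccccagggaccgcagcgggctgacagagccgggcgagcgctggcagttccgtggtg
Gadd45a, chr6:67037408-67037657, minus strand: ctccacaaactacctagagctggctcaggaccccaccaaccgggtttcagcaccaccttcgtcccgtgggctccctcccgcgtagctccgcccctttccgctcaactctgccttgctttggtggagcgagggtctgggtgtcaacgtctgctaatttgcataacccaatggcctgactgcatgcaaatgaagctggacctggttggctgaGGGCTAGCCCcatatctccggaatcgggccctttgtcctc

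The Ccng1 element began 195 bases before the start site. A 20-base element with at most 1 mismatch was present in 25 of the 32851 promoter windows of all genes, or 0.0761%, and a half-site in 2341, or 7.13%. The search used the p53 half-site consensus, which reads the same on both strands, and allowed no spacer between half-sites. The RefSeq table held 10 windows for 8 of the 10 genes, of which 6 contained a half-site and 2 the 20-base element. The second 20-base element was that of Cdkn1a, at the more upstream of its 2 listed start sites (chr17:29090729-29090978, plus strand), where it read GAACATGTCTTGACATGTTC from 51 bases before the start. Among genes whose values overlapped between genotypes, Sesn1 held a half-site 173 bases before the more downstream of its listed start sites, and Phlda3 held none. The Trp53 window held a half-site, and Trp53inp1 and Zmat3 had no window. The classical p53 elements of Mdm2 and Gadd45a lie inside the genes, beyond these windows. A match describes the letters of the sequence and is not a measurement of binding.

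Across the series, Cavin4 checked the labels. It measured 5.38, 5.74 and 5.59 in knockout ventricles and 8.75, 8.62 and 8.07 in wild-type ventricles (deposited log2 values), a difference of -2.91 (SE 0.18, limma adjusted p = 0.012). Its adjusted p was 0.0646 when knockout replicate 1 was left out, 0.118 for knockout replicate 3 and 0.0777 for wild-type replicate 1. The array medians lay between 4.60 and 4.71, and the highest was that of wild-type replicate 1. All 8 cardiomyocyte markers were bright, with a mean log2 level of 12.55 to 12.57 in both genotypes. Knockout replicate 2 stood apart in the atrial myosin light chain Myl7, which measured 7.22 there and from 3.61 to 4.11 in the other 5 arrays. Results that rest on that array are therefore given without it as well.

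Ccng1, Mdm2 and Sesn2 were lower in every knockout array than in any wild-type array, and Gadd45a was higher in every knockout array. The other 4 genes, Sesn1, Trp53inp1, Phlda3 and Zmat3, overlapped between genotypes. Of all 24898 probe sets tested, 12.9% had every knockout array below every wild-type array and 6.12% had every knockout array above, and nothing is read from the count of the 3 lower genes because they were picked for their fall. Differences are knockout minus wild type in log2 units, and all 8 genes passed the filter on low values, which stood at a log2 value of 3.448.

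**Figure D1:**
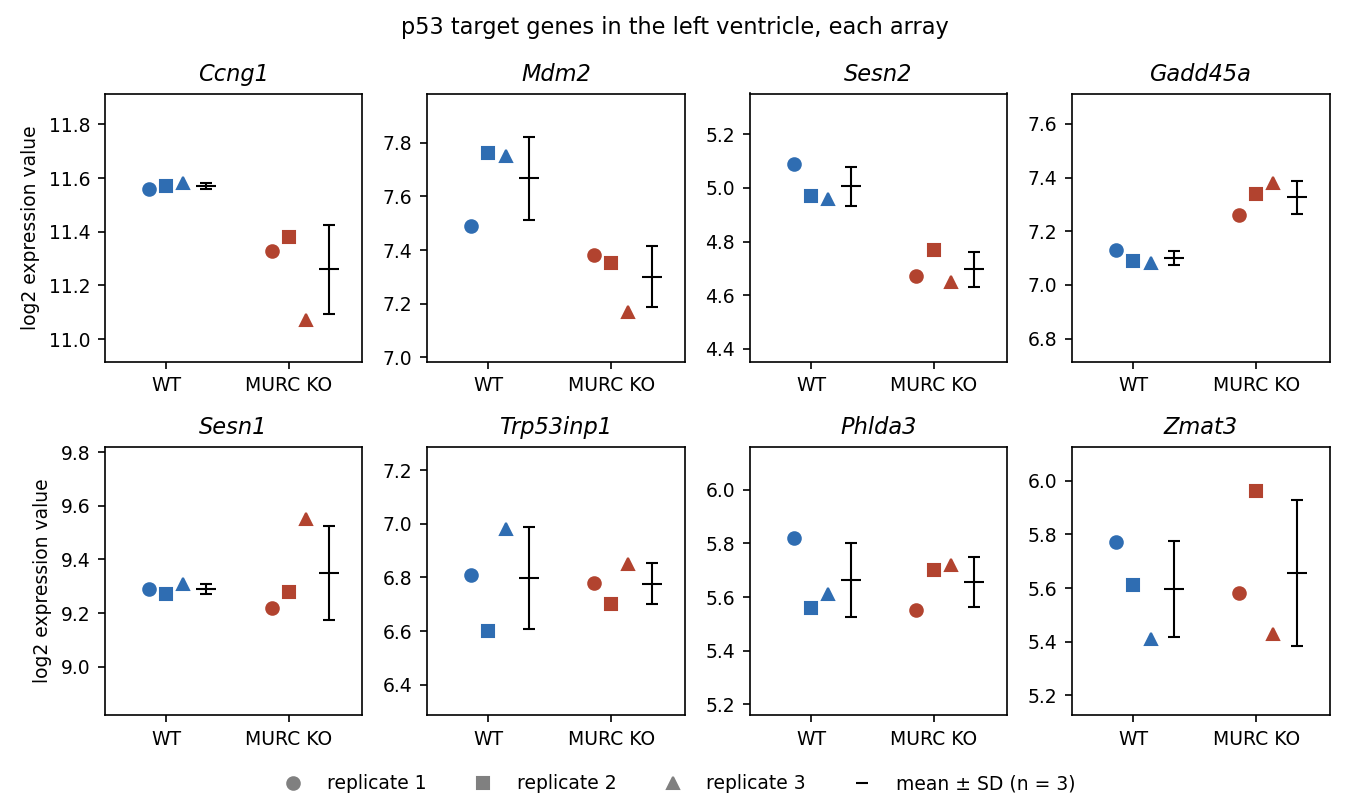
Log2 expression value of each of the 8 measured p53 target genes (vertical axis, a window of 1 log2 unit in every panel) in the 3 wild-type and 3 MURC knockout arrays, with symbols for the replicates and bars for the mean ± SD. The upper row holds the genes whose groups do not overlap, with Ccng1, Mdm2 and Sesn2 lower and Gadd45a higher in the knockout, and the lower row holds the genes whose groups overlap.

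Mdm2, the p53 ubiquitin ligase, measured 7.38, 7.35 and 7.17 in knockout replicates 1 to 3 and 7.49, 7.76 and 7.75 in the wild type. The nearest arrays of the 2 genotypes, knockout replicate 1 and wild-type replicate 1, were 0.11 apart. The means were 7.30 ± 0.11 and 7.67 ± 0.15 (SD, n = 3), a difference of -0.37 (SE 0.10), or 1.29-fold lower. After median centring those 2 arrays both measured 7.42 and the groups touched, and after quantile normalization they were 0.018 apart. With age as a covariate the difference was -0.47.

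Ccng1, which encodes cyclin G1, a partner of protein phosphatase 2A that acts on Mdm2, had the tightest wild-type group of the 8 genes. It measured 11.56, 11.57 and 11.58 there and 11.33, 11.38 and 11.07 in the knockout. The knockout group spread over 0.31 and the wild-type group over 0.02, and the lowest array was knockout replicate 3. The difference was -0.31 (SE 0.08), or 1.24-fold lower, and it was -0.22 without knockout replicate 3 and -0.43 with age as a covariate. The value with the age covariate leans on that same array, the only knockout sample of 13 weeks.

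Sesn2, a sestrin that restrains mTORC1 when amino acids are scarce, lay nearest to the filter on low values. It measured 4.67, 4.77 and 4.65 in knockout ventricles and 5.09, 4.97 and 4.96 in wild-type ventricles. No knockout array came within 0.19 of a wild-type array, and both groups were narrow, with ranges of 0.12 and 0.13. The difference of -0.31 (SE 0.09) ranged from -0.35 to -0.27 over all 15 alternatives.

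The other sestrin genes overlapped between genotypes. Sesn1, which carries out the same inhibition of mTORC1, measured 9.22, 9.28 and 9.55 in knockout ventricles and 9.29, 9.27 and 9.31 in wild-type ventricles. Knockout replicate 3 was the highest array and the other 2 knockout arrays lay at or near the wild-type values. The difference was 0.06 (95% interval -0.15 to 0.27, limma adjusted p = 0.824), and without knockout replicate 3 it was -0.04. Sesn3, the third family member, differed by -0.06 (limma adjusted p = 0.775). The difference between the responses of Sesn1 and Sesn2 was not tested, because Sesn2 was picked for its fall.

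Gadd45a, a stress protein that binds PCNA and activates p38 signalling, was the 1 gene of these 8 with higher values in every knockout array. It measured 7.26, 7.34 and 7.38 in knockout ventricles and 7.13, 7.09 and 7.08 in wild-type ventricles. The groups were 0.13 apart and the ranges within them were 0.12 and 0.05. The difference was 0.23 (SE 0.07), or 1.17-fold, with a limma adjusted p of 0.205, so it did not pass the threshold of 0.05. Over the alternatives it lay between 0.20 and 0.27, with adjusted p from 0.132 to 0.496. Leaving out an array could not turn its sign, because the groups do not overlap.

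Gadd45b, a relative that shares the p38 branch, measured 6.85, 7.03 and 6.94 in knockout ventricles and 6.38, 6.39 and 6.82 in wild-type ventricles, a difference of 0.41 (limma adjusted p = 0.241). The wild-type replicate 3 value lay just below the knockout arrays and far above the other wild-type arrays, and the groups did not overlap. Gadd45g, the other relative, differed by 0.18 with overlapping groups (limma adjusted p = 0.565), and by 0.09 with knockout replicate 3 left out or 0.098 with wild-type replicate 2 left out.

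Trp53inp1, a stress protein that strengthens p53 activity and takes part in autophagy, measured 6.78, 6.70 and 6.85 in knockout ventricles and 6.81, 6.60 and 6.98 in wild-type ventricles. The knockout arrays all fell inside the range of the wild type. The difference was -0.02 (95% interval -0.27 to 0.23, limma adjusted p = 0.957). Its relative Trp53inp2, an autophagy cofactor abundant in muscle, measured 10.10, 10.13 and 9.69 in knockout ventricles and 10.36, 10.36 and 10.42 in wild-type ventricles. Every knockout array was lower, knockout replicate 3 most of all, and the difference was -0.41 (SE 0.12, limma adjusted p = 0.197). Without knockout replicate 3 the Trp53inp2 difference was -0.27, and with age as a covariate it was -0.59 (limma adjusted p = 0.0634). Here too the value with the age covariate leans on knockout replicate 3.

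Phlda3, a small lipid-binding protein that competes with AKT for the membrane, measured 5.55, 5.70 and 5.72 in knockout ventricles and 5.82, 5.56 and 5.61 in wild-type ventricles. The groups were intermixed, with a difference of -0.01 (95% interval -0.24 to 0.23, limma adjusted p = 0.985). Its relatives Phlda1 and Phlda2 differed by 0.18 and -0.04 and did not pass either (limma adjusted p = 0.737 and 0.894). Cyclin G2, the relative of cyclin G1 encoded by Ccng2, differed by 0.16 with overlapping groups (limma adjusted p = 0.545), and by 0.072 with age as a covariate. It was not tested against Ccng1, which was picked for its fall. Of the 7 family relatives 4 were higher and 3 lower, with a median difference of 0.16.

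Zmat3, a zinc-finger protein that binds RNA and regulates splicing and stability, had the widest knockout group of the 8 genes. It measured 5.58, 5.96 and 5.43 in knockout ventricles and 5.77, 5.61 and 5.41 in wild-type ventricles. Knockout replicate 2, the array with the high Myl7 value, was the highest, and without it the difference of 0.06 became -0.09. The 95% interval of the difference was -0.31 to 0.43 (limma adjusted p = 0.907).

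Of the 5 measured genes that had not been picked for their fall, 0 passed the adjusted threshold in limma, and 1, Gadd45a, had an unadjusted p under 0.05. Among all 24898 probe sets, 1 passed the adjusted threshold, or 0.00402%, that of Cavin4, and unadjusted p-values under 0.05 were found at 9.02% with lower and 4.71% with higher knockout values. The adjusted count depended strongly on the processing, reaching 361 when only annotated probe sets were tested. Gadd45a had an adjusted p of 0.147 in that setting.

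Beyond these genes, 6 lists covered p53 regulators, p53 targets by role and the family relatives, with 72 genes in all, of which 65 had a probe set with a single symbol and 64 passed the filter. No gene of the 64 passed the adjusted threshold in limma. At an unadjusted p under 0.05 there were 3 lower genes, Hipk2, Prkab1 and Trp53inp2, and 2 higher genes, Ddit4 and Gadd45b. These are 4.69% and 3.12% of the 64, against 9.02% and 4.71% of all probe sets. The groups did not overlap for 5 lower genes, or 7.81%, and 3 higher genes, or 4.69%, against 12.9% and 6.12% of all probe sets. By direction of the mean alone 41 of the 64 were lower, and over all probe sets tested 59.1% were lower, or 51.9% after quantile normalization. The median difference of the 64 was -0.046, against -0.037 over all probe sets tested. Without knockout replicate 1 there were 5 lower genes, and without wild-type replicate 3 there were 9 lower and 4 higher. Without knockout replicate 3 or wild-type replicate 2 there was 1 higher gene.

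**Figure D2:**
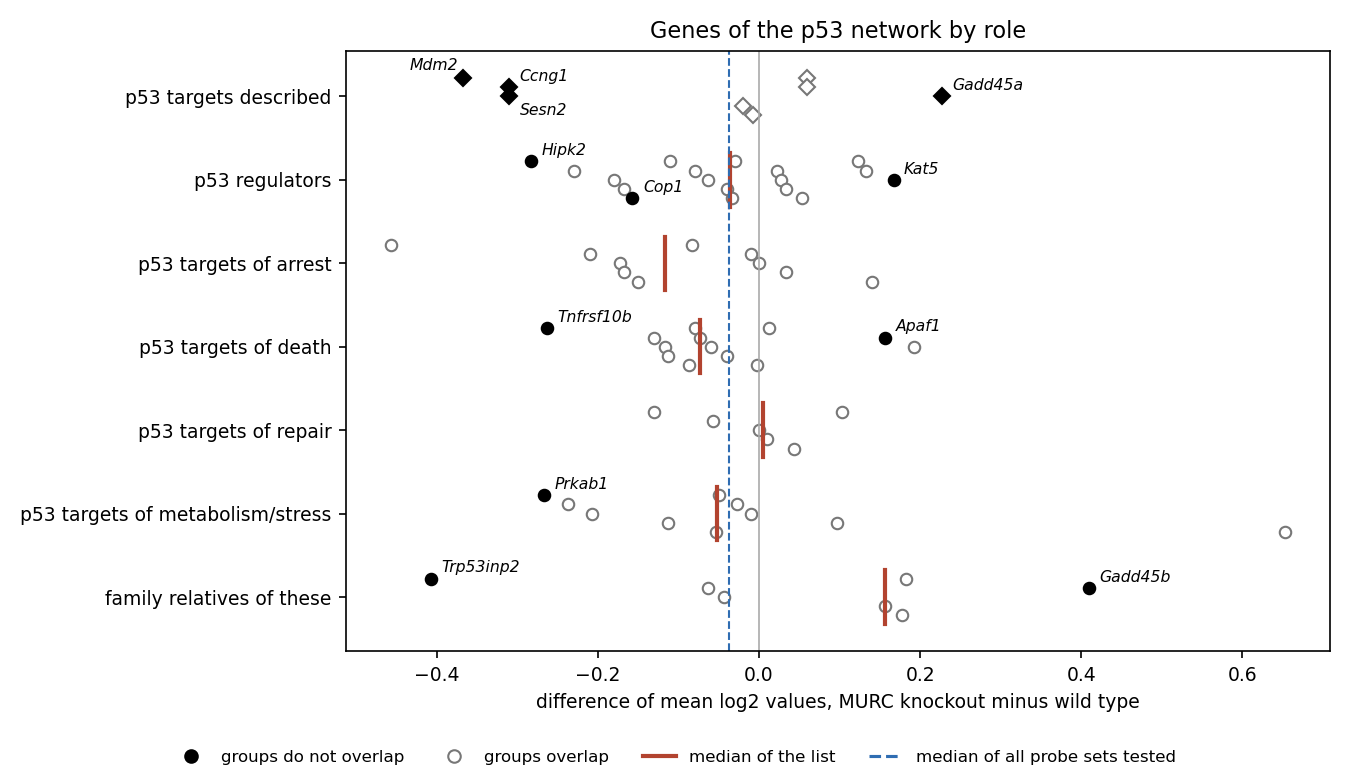
Difference of mean log2 values (horizontal axis, knockout minus wild type) for each tested gene of the p53 network, in rows by role, with the 8 p53 targets described as diamonds and the other 64 genes as circles. Filled symbols mark genes whose groups do not overlap, the solid bar is the median of a list and the dashed line the median of all probe sets tested at -0.037, and the list medians lie between -0.12 and 0.16.

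Among the regulators that act on p53 itself, 11 of 18 tested genes had lower and 7 higher knockout means, beside 59.1% lower over all probe sets, and the median difference was -0.037. Hipk2, a kinase that phosphorylates p53, measured 8.98, 9.06 and 8.91 in knockout ventricles and 9.17, 9.26 and 9.37 in wild-type ventricles. All its knockout arrays were lower, with a difference of -0.28 (SE 0.07, limma adjusted p = 0.161). Cop1, a ubiquitin ligase for p53, differed by -0.16 in its brighter probe set and by -0.14 in the other (limma adjusted p = 0.367 in the brighter). The acetyltransferase gene Kat5 differed by 0.17 and the checkpoint kinase gene Chek2 by -0.23 (limma adjusted p = 0.442 and 0.595). Leaving out 1 array moved Kat5 to 0.105 (wild-type replicate 1) and Chek2 to -0.137 (knockout replicate 3) or -0.373 (wild-type replicate 3). Mdm4, the partner of Mdm2 in restraining p53, differed by 0.05 (limma adjusted p = 0.896), with overlapping groups.

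Targets that stop the cell cycle had a median difference of -0.12, with 7 of 10 genes lower, beside 59.1% of all probe sets, 2 higher and Pml with equal means, and none had an unadjusted p under 0.05. The smallest p-values were those of Plk3, Cd82, E2f7 and Gtse1, with differences of -0.21, -0.15, -0.17 and -0.17 (limma adjusted p = 0.552 to 0.598). Each rested in part on 1 array. Without knockout replicate 1 the difference was -0.117 for Plk3 and -0.093 for Gtse1. It was -0.085 for Cd82 when knockout replicate 3 was left out, and -0.103 for E2f7 when wild-type replicate 1 was. With age as a covariate Plk3 and E2f7 shrank to -0.098 and -0.075, while Cd82 and Gtse1 were -0.189 and -0.191. Btg2, an antiproliferative and early response gene named here after its values were seen, measured 6.52, 6.74 and 6.71 in knockout ventricles and 7.81, 7.34 and 6.19 in wild-type ventricles. Its wild-type arrays spread on both sides of the knockout, and the difference of -0.46 had a limma adjusted p of 0.648.

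Targets that promote cell death had a median difference of -0.07, with 10 of 13 genes lower, beside 59.1% of all probe sets, and 0 with an unadjusted p under 0.05 in limma. Apaf1, the scaffold of the apoptosome, differed by 0.16 without overlap and the death receptor gene Tnfrsf10b by -0.26 without overlap (limma adjusted p = 0.390 and 0.442). Without knockout replicate 1 the Tnfrsf10b difference was -0.128, and with age as a covariate -0.157. Ei24 differed by -0.09, and Siva1 by -0.11 in its brighter probe set and by -0.20 in the other. Bbc3 and Pmaip1, which encode the death proteins PUMA and NOXA, differed by -0.12 and -0.08 with overlapping groups (limma adjusted p = 0.718 and 0.798).

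Repair targets had a median difference of 0.005 over 6 genes. Polh, a polymerase that copies past damaged bases, differed by -0.13, Xpc and Ddb2, which recognise damage from ultraviolet light, by 0.10 and 0.04, and Rrm2b, a ribonucleotide reductase subunit, by -0.06. The groups overlapped at all 6.

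Metabolic and stress targets had a median difference of -0.05, with 8 of 10 tested genes lower, beside 59.1% of all probe sets. Ddit4, an inhibitor of mTORC1 like the sestrins, measured 7.45, 7.68 and 7.96 in knockout ventricles and 6.85, 6.73 and 7.55 in wild-type ventricles. Wild-type replicate 3 lay among the knockout arrays, so the groups overlapped, and the difference of 0.65 had a limma adjusted p of 0.272. Prkab1, a subunit of the energy sensor AMPK, measured 7.66, 7.64 and 7.52 in knockout ventricles and 7.94, 7.99 and 7.69 in wild-type ventricles, a difference of -0.27 without overlap (limma adjusted p = 0.282). The thiamine transporter gene Slc19a2 and the glutathione peroxidase gene Gpx1 differed by -0.21 and -0.24 (limma adjusted p = 0.430 and 0.497). The Gpx1 difference was -0.087 without knockout replicate 3 and -0.445 with age as a covariate.

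Genes whose array profiles were nearest to those of the 3 lower targets were found among 14415 other named genes, by the mean absolute difference of the 6 centred log2 values. Nearest to Ccng1 were Hipk3, a kinase gene of the Hipk2 family, Smpd1, the acid sphingomyelinase gene, and Abcc9, a subunit gene of the ATP-sensitive potassium channel, at 0.020, 0.020 and 0.022. Nearest to Mdm2 were Trmt2b, a tRNA methyltransferase gene, Ctc1, which maintains telomeres, and Psmd5, a proteasome assembly chaperone gene, at 0.018, 0.036 and 0.037. Nearest to Sesn2 were Noct, a circadian phosphatase gene, Gdpd5 and the vitamin B12 processing gene Mmachc, at 0.017, 0.018 and 0.018. These 9 genes were chosen for their likeness, so their differences between genotypes, from -0.34 to -0.28, follow from the choice and support nothing about the 3 targets.

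Markers of other cells and of dividing cells were read on the same arrays. Of 10 tested cell cycle genes 9 were lower, 6 of them without overlap. Of all probe sets 59.1% were lower and 12.9% were lower without overlap. In limma 0 of the 10 passed the adjusted threshold. Top2a was among the 6, counted by the brighter of its 2 probe sets. That probe set had a knockout mean of 3.43, below the filter value of 3.448, and a wild-type mean of 4.15. The mean level of the 11 measured genes was 4.62 to 4.70 in the knockout and 4.91 to 5.07 in the wild type. Of 8 tested leukocyte markers 7 were lower, beside 59.1% of all probe sets, 1 of them without overlap, and 0 passed the adjusted threshold in limma. Mean levels of the 9 measured, 6.03 to 6.25 in the knockout and 6.13 to 6.45 in the wild type, overlapped. Of 6 smooth muscle and pericyte markers 5 were higher, 2 of them without overlap. Of all 24898 probe sets tested 10175 were higher, and 6.12% were higher without overlap. The 2 were Myh11 and Tagln, at 0.35 and 0.42 (limma adjusted p = 0.113 and 0.276), and Pdgfrb was lower, at -0.15. Mean levels of the 6 were 7.14 to 7.21 in knockout and 6.98 to 7.07 in wild-type arrays. Mean levels of the 6 endothelial markers, 8.61 to 8.68 and 8.47 to 8.74, and of the 6 fibroblast markers, 8.03 to 8.22 and 8.14 to 8.24, overlapped. The part of these cells in the values of the p53 targets was not tested.

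**Figure D3:**
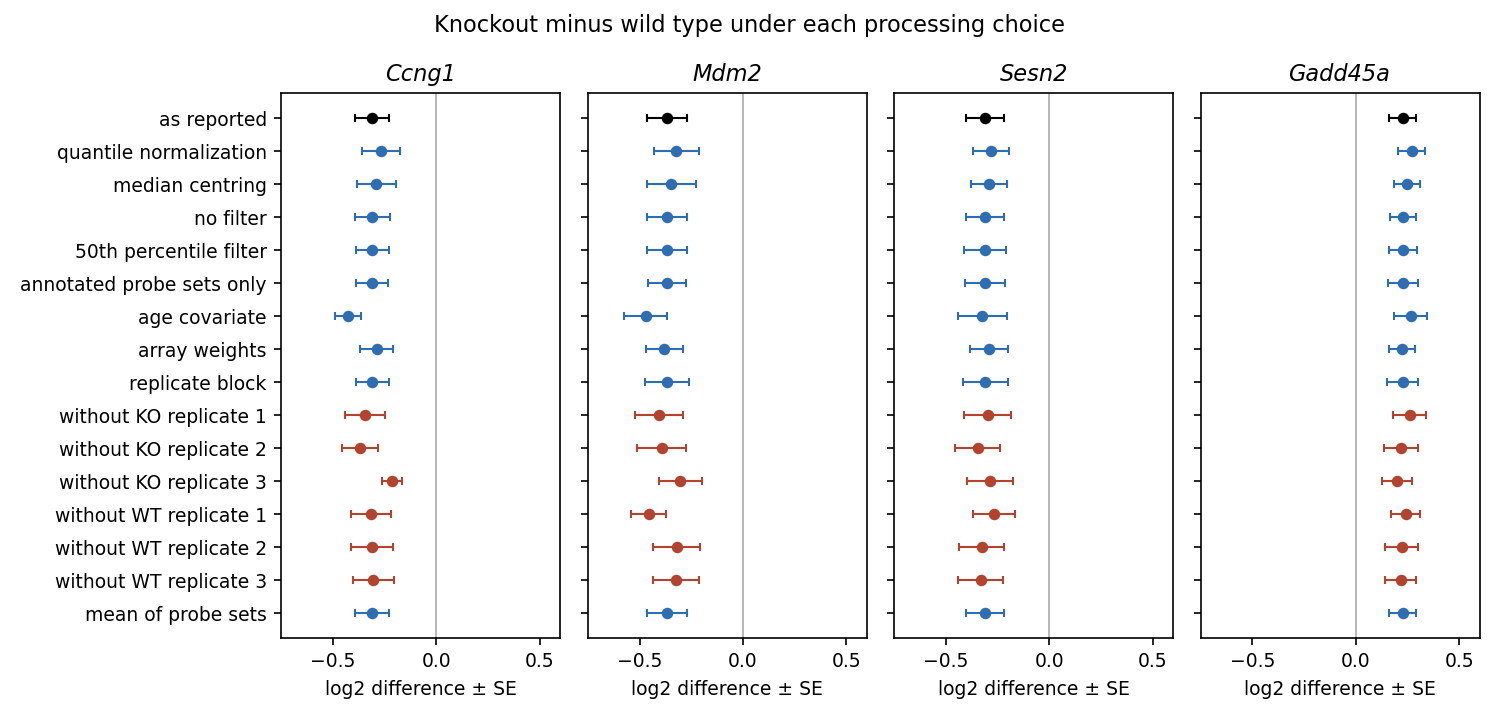
Difference of log2 values, knockout minus wild type, with its SE (horizontal axis) for the 4 genes whose groups do not overlap, as reported (black), under 9 other processing choices (blue) and without each array in turn (red). Ccng1 stays between -0.43 and -0.22, Mdm2 between -0.47 and -0.30, Sesn2 between -0.35 and -0.27 and Gadd45a between 0.20 and 0.27.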

How the data were processed

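Left ventricle RNA of 3 MURC knockout and 3 wild-type mice was read on 6 arrays. The authors deposited log2 expression values for 35556 probe sets, used as they stand. Among tools, the submitters' processing notes list only MAS5, with no step or version. How probes were summarized and scaled was not found in the labels. That the values are log2 was read from their range, 0.46 to 13.72, which on another log base would exceed a scanner's range.

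Symbols came from the platform annotation, updated by gene identifier through the RefSeq table of GRCm38.p6. Probe sets with 1 symbol numbered 21789, with several 1621, and 12146 were not listed. Of a gene's probe sets, the one with the highest mean was counted. Limma 3.58.1 in R 4.3.3 (lmFit, eBayes with an intensity trend, two-sided) compared the genotypes over the 24898 probe sets at or above the 30th percentile of mean value, with Benjamini-Hochberg adjustment and a threshold of 0.05. The test was tested on simulated data.

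The genes described and all lists were chosen with earlier results of these data known. Named are Cavin4, the 10 p53 genes, up to 4 genes per list with the smallest p, and the 3 nearest profiles of each lower target. Beyond that rule are Mdm4, Btg2, Bbc3, Pmaip1, Pml, Sesn3, Phlda1, Phlda2, Myl7, Top2a, Myh11, Tagln and Pdgfrb. Promoters were searched only by sequence. The number of arrays limits the precision.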

Additional observations from a re-analysis of the deposited data

How the results depend on the processing

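For Ccng1, Mdm2, Sesn2 and Gadd45a the sign of the difference could change only under quantile normalization and the age covariate. It kept there. Median centring moves every difference by the same small amount, for Mdm2 from -0.367 to -0.347, so it could not turn these signs. Leaving out an array or weighting the arrays cannot turn the sign of groups that do not overlap. The other 5 settings leave the differences of these genes as they are. After both rescalings their groups stayed apart, except that those of Mdm2 touched after median centring. The small differences of the overlapping genes changed sign: Sesn1 was -0.04 without knockout replicate 3, in a range of -0.04 to 0.125 without single arrays. Trp53inp1 was 0.018 after quantile normalization, 0.003 with array weights, 0.018 without knockout replicate 2, and 0.072 leaving out wild-type replicate 3 (range without single arrays -0.118 to 0.072). Phlda3 was 0.026 after quantile normalization, 0.013 after median centring, 0.047 with the age covariate, 0.013 with array weights, 0.047 without knockout replicate 1, and 0.072 leaving out wild-type replicate 1 (range -0.058 to 0.072). Zmat3 was -0.02 with the age covariate, -0.092 without knockout replicate 2 and -0.033 when wild-type replicate 3 was left out (range -0.092 to 0.173), and Ddb2 was -0.003 without wild-type replicate 2 (range -0.003 to 0.097).

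The difference of Cavin4 lay between -3.115 and -2.775 without single arrays. The probe sets past the adjusted threshold numbered 130 after quantile normalization, 105 after median centring, 48 with the 50th percentile filter, 361 over annotated probe sets only, 34 with the age covariate and 126 with array weights, and 0 to 11 without single arrays. The cause was not tested. Of the 64 p53 network genes, 0 passed in any alternative. At an unadjusted p under 0.05, 4 were higher after quantile normalization and 0 with the age covariate, and without single arrays 2 to 9 were lower and 1 to 4 higher. Lower values made up 65.7% of probe sets with an unadjusted p under 0.05 as deposited, 51.2% after quantile normalization and 50.1% without wild-type replicate 1.

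Replicate numbers did not pair the samples: deviations of same-numbered arrays correlated at -0.06, 0.02 and -0.06, and 1 of 3 knockout arrays correlated best with its own number. With the replicate block, 0 probe sets passed and Cavin4 had a difference of -2.91 with an adjusted p of 0.0754. Where leaving out an array left 2 samples in a group, the fit pooled the spread over both groups. Averaging probe sets per gene leaves the differences of the p53 targets as they are, since each had 1 probe set.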
